A study of Sus scrofa with 6 samples.

Results

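CLDN5, NOS3, DARC, EDN1 and PROX1 are genes of the cells that line blood and lymph vessels. They were followed as 5 rows of tables that list 4122 genes. The rows were chosen by name, with earlier results of these data known. All 5 were found in every table. RNA was sequenced from lymph node, spleen and thymus of pigs with a biallelic RAG2 knockout and of wild-type littermates, all 3 months old. RAG2 is part of the recombinase that assembles antigen receptor genes, and the series title speaks of SCID pigs lacking a single amino acid. Each organ and genotype gave 1 library, 6 in all, so no difference below has a replicate check and none has a p-value. The labels do not say which pig, or how many pigs, each library came from.

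Endothelial cells form the wall through which lymphocytes enter and leave lymphoid organs. CLDN5 is the main claudin of endothelial tight junctions, which seal the gaps between neighbouring cells. NOS3 is the endothelial nitric oxide synthase, whose product relaxes vascular smooth muscle, and EDN1 encodes the precursor of endothelin-1, which constricts it. DARC, listed as ACKR1 in current annotation, is an atypical receptor that binds inflammatory chemokines without classical signalling; it is known from the endothelium of venules and, in humans, from red cells. PROX1 is the transcription factor that gives lymphatic endothelium its identity in mice, and it is also used by other tissues such as liver.

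In Sscrofa11.1, counted from 1, CLDN5 lies on chromosome 14 at 51161490 to 51162382 and NOS3 on chromosome 18 at 6209218 to 6228912. DARC lies on chromosome 4 at 91224089 to 91225610, EDN1 on chromosome 7 at 8752018 to 8758354 and PROX1 on chromosome 9 at 129527704 to 129583693. PROX1 overlaps the predicted gene LOC106507881. The strand setting of the counting is not given in the sources used here, so fragments of the overlap could belong to either gene. The other 4 overlap no annotated gene.

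The libraries held 1922563 to 2541724 fragments on the listed genes. RAG2 itself stood at 1072 FPKM in the knockout thymus, against 606 FPKM in the wild-type thymus, and had 0 to 5 fragments in the other libraries. A transcript level does not check a protein deletion, so the genotype labels are taken as given. FPKM are fragments scaled to transcript length and to the size of the library. The thymus labels stand beside EPCAM at 242 FPKM in the knockout and 196 FPKM in the wild type, against at most 0.839 FPKM in the other organs. CD79B, a B-cell receptor chain, was at 0.611 FPKM in the knockout lymph node and 607 FPKM in the wild-type one.

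The 5 genes differed widely in level. CLDN5 stood at 531, 54.2 and 21.5 FPKM in knockout lymph node, spleen and thymus, against 195, 45.4 and 3.66 FPKM in the wild-type organs. DARC stood at 199.6, 86.1 and 32.0 FPKM in the knockout organs, taken in the same order, against 92.6, 84.2 and 6.34 FPKM in the wild-type ones. These were the most abundant of the 5 in each library. In the knockout lymph node CLDN5 ranked 187 of 3026 genes above 0, and in the wild-type thymus it ranked 2471 of 3075.

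PROX1 stood at 80.2, 9.36 and 1.72 FPKM in knockout lymph node, spleen and thymus, against 31.8, 5.24 and 0.160 FPKM in the wild-type organs. As a fold between the highest and the lowest library, the spread of PROX1 was the widest of the 5. Its low end rests on 1 fragment in the wild-type thymus. NOS3 stood at 53.2, 33.2 and 5.80 FPKM in the knockout organs, taken in the same order, against 24.4, 20.6 and 0.709 FPKM in the wild-type ones. EDN1 was low throughout, at 20.4, 10.4 and 5.37 FPKM in the knockout organs and 6.59, 4.02 and 0.589 FPKM in the wild-type ones.

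**Figure D1:**
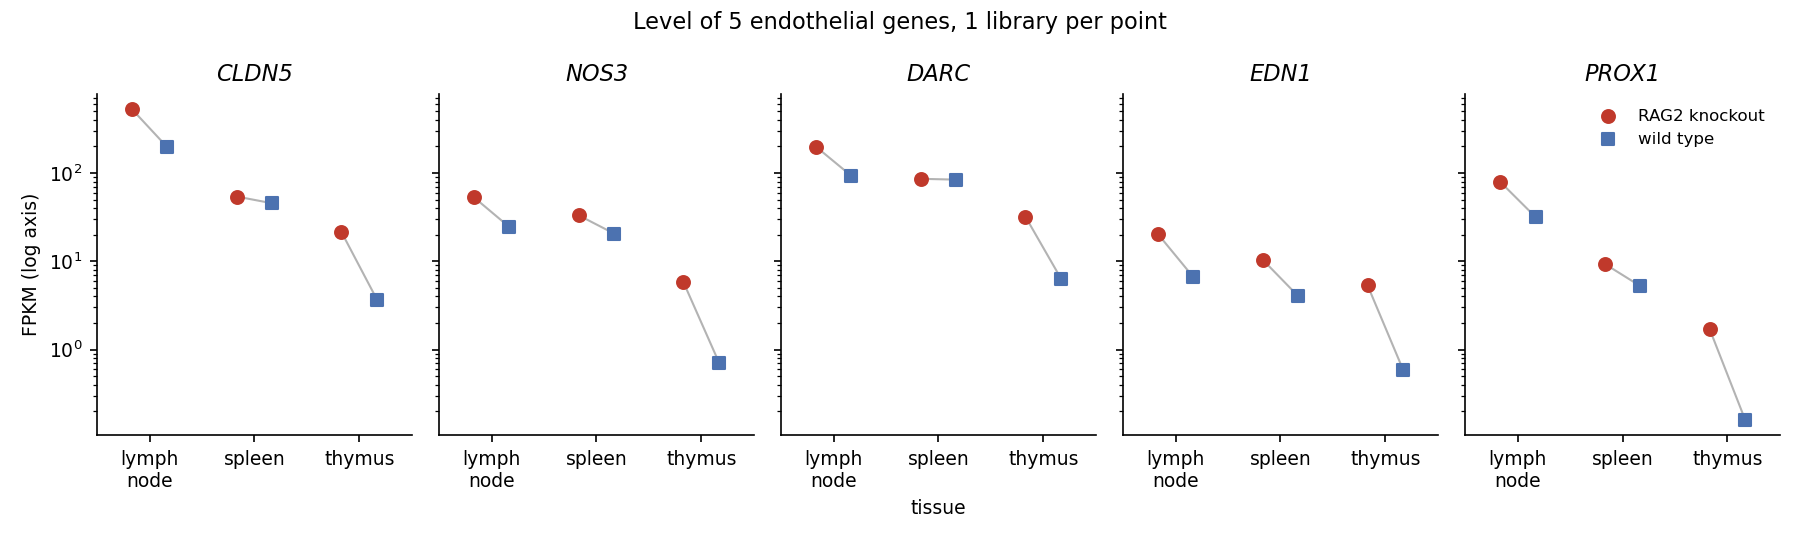
FPKM on a log axis of each gene in lymph node, spleen and thymus, with circles for the RAG2 knockout and squares for the wild-type library, 1 library per point. In each panel the knockout lymph node is highest and the wild-type thymus lowest, and for all 5 genes the knockout and wild-type points lie closest in spleen.

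All 5 genes were highest in the knockout lymph node and lowest in the wild-type thymus. Of 3111 genes measured in any organ, 6.65% had the same top and bottom. FPKM were calculated separately in each organ's table, but fragment counts scaled to a common total gave the same top and bottom library for all 5. Neighbours in the order were then compared by the ratio of these scaled counts with a 95% Clopper-Pearson interval, which covers counting error only. For CLDN5 and DARC the knockout and wild-type spleen could not be separated (ratios 1.17, interval 0.896 to 1.53, and 0.999, interval 0.837 to 1.19). For DARC the wild-type lymph node and the knockout spleen could not be separated either (1.16, interval 0.978 to 1.39). The middle of the EDN1 order, knockout spleen, wild-type lymph node, knockout thymus and wild-type spleen, was not resolved between neighbours at this depth. Every step of the NOS3 and PROX1 orders had an interval above 1. For NOS3, unlike CLDN5, DARC and PROX1, the knockout spleen stood above the wild-type lymph node.

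Organs differed in which of the genes made up the sum of the 5. In lymph node CLDN5 took 60.0% of the summed FPKM in the knockout and 55.7% in the wild type, and DARC took 22.6% in the knockout and 26.4% in the wild type. In spleen the places were turned round: CLDN5 took 28.1% in the knockout and 28.5% in the wild type, while DARC took 44.5% in the knockout and 52.8% in the wild type. Thymus resembled spleen in this respect, with DARC at 48.2% in the knockout and 55.3% in the wild type. NOS3 had its largest shares in spleen, 17.2% in the knockout and 12.9% in the wild type. PROX1 had its largest in lymph node, at 9.06% in both genotypes, and 2.59% and 1.40% in the knockout and wild-type thymus, where it rested on 11 fragments and 1 fragment.

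**Figure D2:**
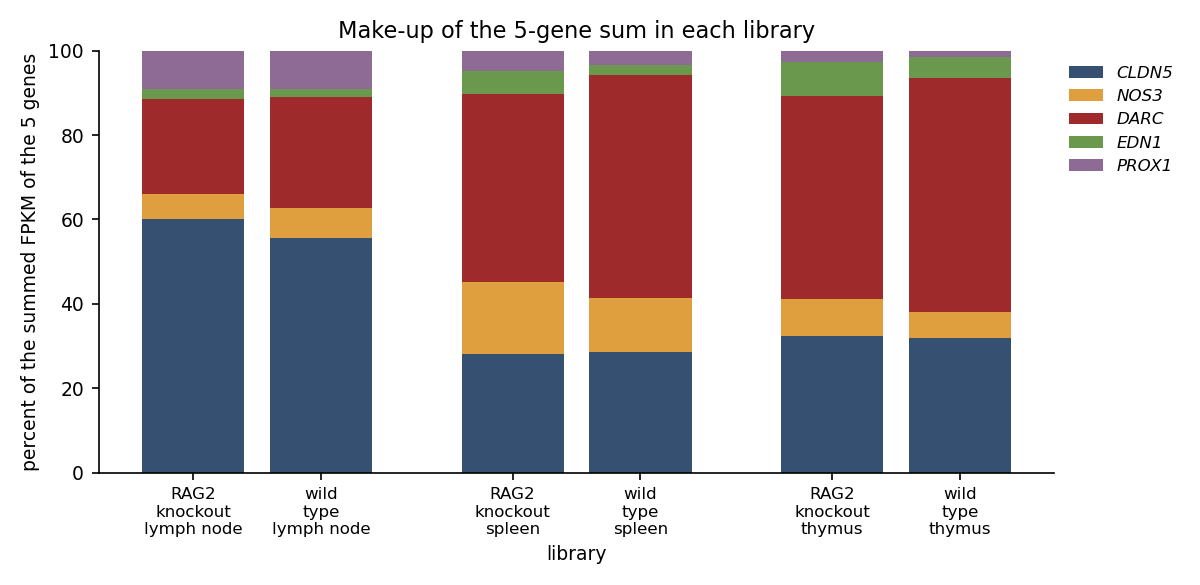
Share of each gene in the summed FPKM of the 5 genes, 1 bar per library. CLDN5 is the largest part in the lymph node libraries, and DARC in the spleen and thymus libraries of both genotypes.

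Between wild-type lymph node and wild-type spleen, PROX1 and CLDN5 were set apart most, at 6.40-fold (interval 4.39 to 9.63) and 4.55-fold (3.64 to 5.74) higher scaled counts in lymph node. DARC was 1.16-fold higher and EDN1 1.73-fold, with intervals of 0.969 to 1.40 and 0.962 to 3.20 that include equal levels, and NOS3 was 1.25-fold higher (1.044 to 1.502). In the knockout the same ratio of lymph node over spleen was 9.28 for PROX1 (7.18 to 12.2), 10.6 for CLDN5 (8.87 to 12.7), 2.51 for DARC (2.17 to 2.91) and 1.74 for NOS3 (1.53 to 1.97). PECAM1, an adhesion molecule of endothelium that platelets and leukocytes also carry, had a ratio of 5.97 in the knockout and 4.57 in the wild type.

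The lymph node pair sets 1 knockout library against 1 wild-type library. All 5 genes were higher in the knockout library by a log2 ratio of at least 1 after adding 1 FPKM to each value, the size used here to call a gene. Of 2910 genes with at least 1 FPKM in either lymph node library, 15.3% were called higher. In fragments, CLDN5 had 1167 in the knockout and 407 in the wild type, a 2.74-fold difference after scaling (95% Clopper-Pearson interval of the ratio of counts 2.45 to 3.08). EDN1 had 104 in the knockout and 32 in the wild type, 3.11-fold (2.07 to 4.78).

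PROX1 was 2.53-fold higher (2.14 to 3.01), NOS3 2.19-fold (1.89 to 2.54) and DARC 2.17-fold (1.87 to 2.53). None of the 10 pairs among the 5 had intervals that stood apart, which does not show that their folds are equal. The log2 ratios were 1.44 for CLDN5, 1.10 for NOS3 and DARC, 1.496 for EDN1 and 1.31 for PROX1. With a pseudocount of 5 FPKM NOS3 was at 0.987, short of the size for a call. In bulk tissue, more endothelial cells and more RNA per endothelial cell cannot be told apart.

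Other endothelial genes went several ways in lymph node. Of 31 general endothelial genes on the list, 11 were in the tables and 10 measured, AQP1 being listed at 0 in every library. Of the 10, 1 was called higher, the thrombomodulin gene THBD (log2 ratio 1.74), and 1 lower, the protein C receptor PROCR (-1.32), against 10.3% of all genes called lower. Their median was 0.78, beside -0.00456 over all measured genes. The receptor partner RAMP2 (0.996), its receptor CALCRL (0.98), the ETS factor ERG (0.96), the clotting factor VWF (0.91), PECAM1 (0.66) and the TGF-beta coreceptor ENG (0.55) were below the size for a call. The adhesion molecules CD34 and ICAM-2 were at 0.09 and 0.02. Set against the list's median, the 5 genes were higher by 0.31 (NOS3 and DARC) to 0.71 (EDN1) on the log2 scale.

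**Figure D3:**
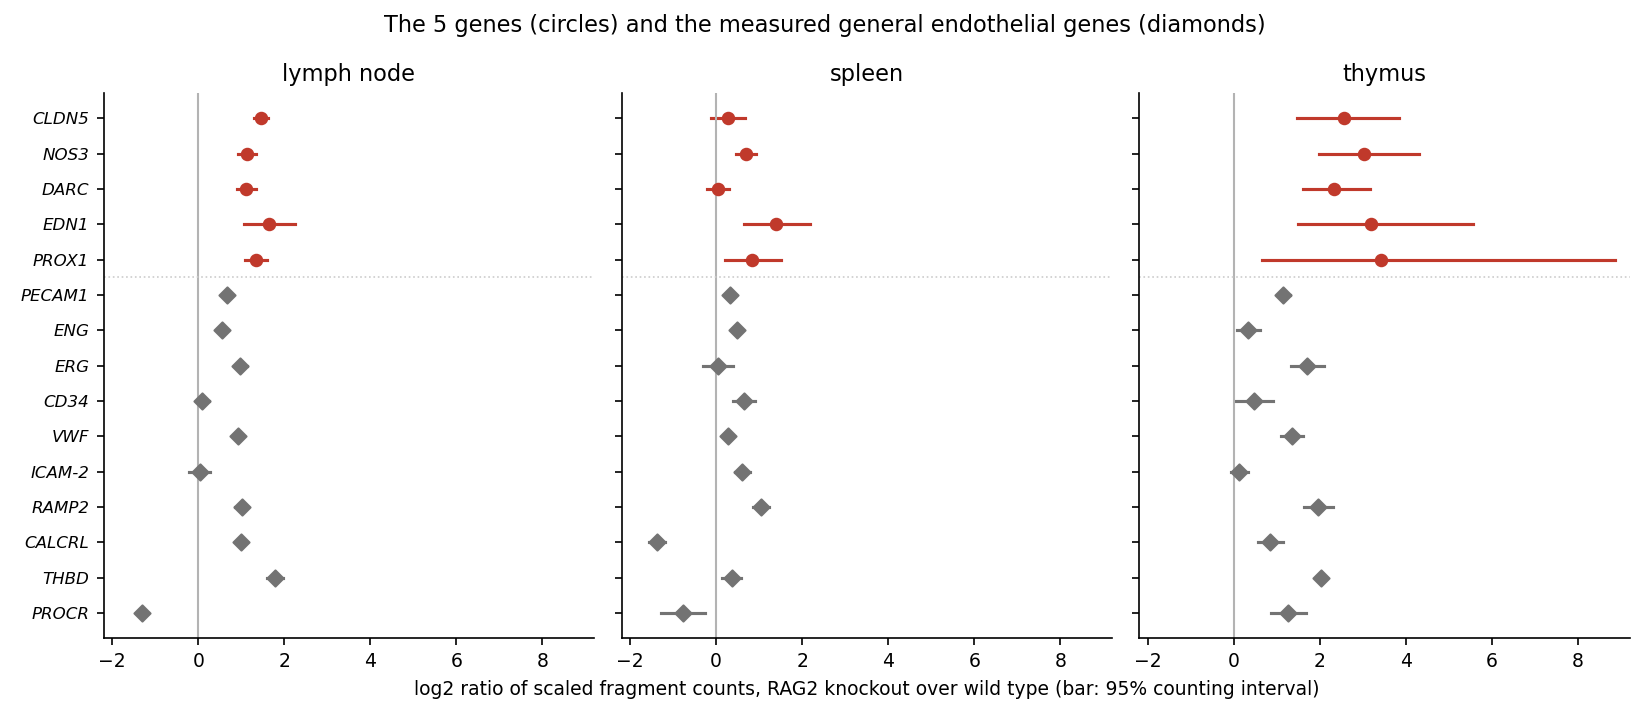
Log2 ratio of scaled fragment counts, RAG2 knockout over wild type, for the 5 genes (circles) and the 10 measured general endothelial genes (diamonds), with 95% counting intervals, by organ. In lymph node and thymus the intervals of the 5 genes all lie above 0; in spleen those of CLDN5 and DARC include 0.

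Markers of other cells moved in the same lymph node library. The fat-cell list had 7 of 7 measured genes higher, with a summed level of 9171 FPKM in the knockout and 129 FPKM in the wild type. Of these, PCK1 (591 fragments in the knockout, 0 in the wild type) and LEP (9 and 1) passed the minimum through the knockout library alone. Red-cell genes summed to 6749 FPKM in the knockout and 386 FPKM in the wild type, nearly all of it HBB. Of 3 measured genes 1 was higher, HBB at 4.16. Smooth muscle and pericyte genes had 4 of 6 higher, among them SMTN at 2.01, with sums of 1927 FPKM in the knockout and 835 FPKM in the wild type. The fibroblast list had 1 of 4 higher (DCN, 2.72), the macrophage list 3 of 4 and the platelet list 1 of 2. T-cell genes were lower in 6 of 6 cases, with sums of 149 FPKM in the knockout and 1452 FPKM in the wild type. B-cell genes were lower in 4 of 4, with sums of 4.50 FPKM and 1493 FPKM in the knockout and wild type. The part of these shifts in the levels of the 5 genes was not tested.

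**Figure D4:**
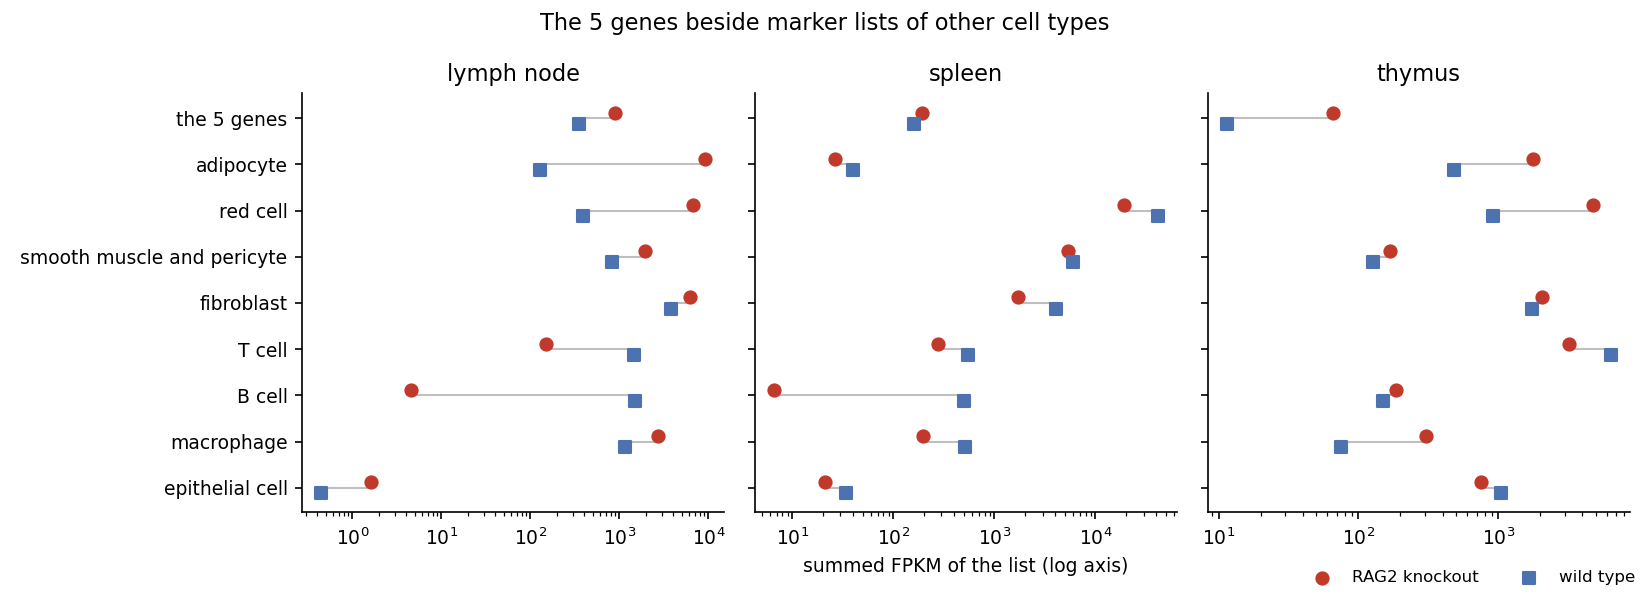
Summed FPKM on a log axis of the 5 genes and of marker lists of other cell types, circles for RAG2 knockout and squares for wild type, 1 library per point. The sum of the 5 genes is higher in the knockout of all 3 organs, in spleen at 193 FPKM in the knockout and 159 FPKM in the wild type. The fat-cell and red-cell sums are higher in the knockout lymph node and thymus and lower in the knockout spleen. The red-cell sum is nearly all HBB and does not speak for the other red-cell genes. The T-cell sum is lower in the knockout of all 3 organs.

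Genes around the 5 in the lymph node went several ways. The venule and lymphocyte entry list, which holds selectins and other adhesion molecules, had 6 of 11 genes in the tables and 5 measured. None was called, and the median was -0.09, whereas DARC, which shares the venules, was called. Of the lymphatic list 3 of 16 genes were in the tables, and none was called beside PROX1. The atypical chemokine receptor CCBP2 was at 0.83, the chemokine CCL21 at -0.47 and the vessel growth factor ANGPT2 at -0.46. ANGPT2 is on the growth factor list as well. Among vessel growth factor genes 1 of 8 was higher (VEGFA, 1.03) and 1 lower, the oxygen-responsive factor subunit HIF1A (-1.14), with a median of 0.45.

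The nitric oxide list gave 3 higher and 1 lower of 11 in lymph node (median 0.45). CAV1, the caveolar protein that binds and holds back NOS3, was at 1.46, the inducible synthase NOS2 at 1.45 and the arginine importer SLC7A1 at -1.30. ARG1, which competes for the same arginine, was higher on 28 fragments in the knockout and 1 fragment in the wild type. ARG1 passed the minimum through the knockout library alone, so nothing is read from the count of 3. Of the endothelin list the contracting receptor EDNRA was called at 1.23 and EDNRB, found on endothelium, was at 0.79; with EDN3 under the minimum, these were the 2 measured. Of the chemokines that bind DARC, 4 of 7 were higher (median 1.28), among them IL8 (2.33), CXCL2 (2.23) and CCL5 (1.28); CCL8 rested on 8 fragments in the knockout and 2 in the wild type. Of 5 other claudins measured in lymph node 4 were called higher, beside 15.3% of all measured genes. CLDN12 was at -0.02 on 48 fragments in the knockout and 46 in the wild type. CLDN4, an epithelial claudin, had 99 fragments in the knockout and 4 in the wild type, CLDN11 had 73 and 11, CLDN1 had 13 and 0, and CLDN3 had 2 and 0, the knockout given first in each. CLDN1 and CLDN3 passed the minimum through the knockout library alone, so nothing is read from the count of 4. The interval of CLDN3 includes equal levels.

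In spleen, whose sinusoids filter blood, EDN1 was the only one of the 5 that was called. Of 2849 measured genes 8.88% were called higher, and 286 genes lower. EDN1 had 61 fragments in the knockout and 20 in the wild type, a 2.61-fold difference (1.55 to 4.57) with a log2 ratio of 1.19. A pseudocount of 5 FPKM took it to 0.775. NOS3 was 1.62-fold higher (1.37 to 1.91; log2 ratio 0.67) and PROX1 1.79-fold (1.16 to 2.82; 0.73), both short of a call but with intervals above 1. EDN1 was both called and had an interval above 1, as 7.48% of measured genes did; 8.42% were called lower with an interval below 1.

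CLDN5 had 137 fragments in the knockout spleen and 97 in the wild-type spleen, 1.21-fold (0.926 to 1.59), a difference not detectable at this depth. DARC had 282 and 234 fragments in the knockout and wild-type spleen, 1.03-fold (0.865 to 1.23). Its log2 ratio of 0.03 turned to -0.00146 when counts were scaled to the library total. The genes for the opposing vessel signals, NOS3 and EDN1, thus both had intervals above that of DARC, and these were the 2 of 10 pairs whose intervals stood apart.

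The general endothelial list in spleen had 1 of 10 higher, RAMP2 (1.01), and 1 lower, CALCRL (-1.37), with a median of 0.33; the 2 encode parts of the same receptor. Set against that median, EDN1 was higher by 0.86 and DARC was at -0.30. None of 5 venule genes was called (median 0.08). In the lymphatic list CCL21 (-1.40) and ANGPT2 (-2.21) were lower, 2 of 3, and CCBP2 was at 0.32. The growth factor list had 3 of 8 lower, ANGPT2, the TEK ligand ANGPT1 (-1.54) and the Notch ligand DLL4 (-1.34), with a median of -0.26. The nitric oxide list had 0 of 10 higher and 2 lower, the cyclic GMP kinase PRKG1 (-1.04) and KLF2 (-1.03), a factor known to raise NOS3 in endothelium (median -0.21). The endothelin list had none of 3 called (median -0.00238).

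Among chemokines that bind DARC 4 of 7 were higher in the knockout spleen, beside 8.88% of all measured genes. The median was 1.26, or 0.61 with genes at 0 placed at their bound. CCL11 had 35 fragments in the knockout and 0 in the wild type, at least 9.99-fold higher against a floor of 3 fragments per library, and CCL5 was at 1.26. IL8 also had 0 in the wild type, with 31 in the knockout, and CCL8 had 1 fragment in the knockout and 0 in the wild type. CCL11, IL8 and CCL8 passed the minimum through the knockout library alone, so nothing is read from the count of 4. The interval of CCL8 includes equal levels. The tight junction list had 1 of 7 lower, CLDN3 on 1 fragment in the knockout and 4 in the wild type (median -0.25). Red-cell genes summed to 19016 FPKM in the knockout spleen and 41429 FPKM in the wild-type spleen, nearly all of it HBB. Of 4 measured, HBB was the 1 lower, at -1.13, and 2 were higher, KLF1 (2.22) and GATA1 (2.17). The fibroblast list was lower in 4 of 4, smooth muscle in 2 of 6 and B cell in 4 of 4. T-cell genes were lower in 2 of 6 and macrophage genes in 2 of 4, with 1 higher. Platelet genes were higher in 4 of 4, but GP9 had 4 fragments in the knockout and 1 in the wild type, with an interval that includes equal levels. Fat-cell genes were higher in 1 of 5 and lower in 1, CIDEC, on 1 fragment in the knockout and 8 in the wild type. The part of these lists in the levels of the 5 genes was not tested.

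In thymus all 5 genes were again called higher in the knockout, beside 15.2% of 2908 measured genes. Wild-type values were close to the floor. NOS3, EDN1 and PROX1 were under 1 FPKM there and passed the minimum through the knockout library alone, so the count of 5 describes these rows and supports nothing further. DARC had 93 fragments in the knockout and 18 in the wild type, 5.04-fold (3.02 to 8.88), with a log2 ratio of 2.17. CLDN5 had 48 in the knockout and 8 in the wild type, 5.86-fold (2.75 to 14.3), with a log2 ratio of 2.27.

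NOS3 had 67 fragments in the knockout thymus and 8 in the wild-type one, 8.18-fold (3.92 to 19.7). EDN1 had 28 and 3, knockout first, 9.11-fold (2.81 to 46.8), and PROX1 11 and 1, 10.7-fold (1.56 to 462). The intervals are wide and all pairs among the 5 overlapped. Log2 ratios with 1 FPKM added were 1.99 for NOS3, 2.002 for EDN1 and 1.23 for PROX1, which understates the low genes. With a pseudocount of 5 FPKM these fell short of a call, at 0.919, 0.891 and 0.381, and CLDN5 and DARC stayed called.

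General endothelial genes were also higher in the knockout thymus, 6 of 10 with a median of 1.18 and none lower (10.9% of all genes were called lower, 8.53% with an interval below 1). They were THBD (2.02), RAMP2 (1.93), ERG (1.63), VWF (1.29), PROCR (1.22) and PECAM1 (1.14), while CALCRL was at 0.82, CD34 at 0.44, ENG at 0.32 and ICAM-2 at 0.12. THBD stood at 437 FPKM in the knockout thymus and 107 FPKM in the wild-type one. Those levels were above its 99.9 and 29.1 FPKM in lymph node, knockout first. Which cells of the thymus carry THBD was not tested. Relative to PECAM1, DARC was higher as well in thymus, on 18 fragments in the wild type. CLDN5, NOS3, EDN1 and PROX1 had 8, 8, 3 and 1 fragments in the wild-type thymus, so nothing is read from their ratios to PECAM1 there. Per 100 FPKM of PECAM1, DARC stood at 19.5 FPKM in the knockout thymus and 8.56 FPKM in the wild-type one. In lymph node CLDN5 stood at 39.4 FPKM in the knockout and 22.8 FPKM in the wild type on this measure, and the ratios of knockout over wild type ran from 1.37 for DARC to 1.97 for EDN1. In spleen the ratios were 2.10 for EDN1, 1.44 for PROX1, 1.30 for NOS3, 0.965 for CLDN5 and 0.826 for DARC. The spleen fold intervals of PROX1, CLDN5 and DARC overlapped that of PECAM1 (1.16 to 1.33), so no direction is read from these ratios.

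In the same thymus libraries the venule list had 2 of 5 higher (median 0.85), NR2F2 (1.47), a transcription factor of veins and lymphatics, and the adhesion molecule ICAM-1 (1.26). The lymphatic list had 2 of 3 higher, CCBP2 (2.10, on 37 fragments in the knockout and 6 in the wild type) and CCL21 (just past the size for a call), whose 9 and 4 fragments, knockout first, gave an interval that includes equal levels. The nitric oxide list had 2 of 11 each way (median 0.22). CAV1 (1.47) and ARG1 (33 fragments in the knockout, 1 in the wild type) were higher, and the chaperone HSP90AA1 (-1.21), which binds NOS3, and NOS2 (-1.06) were lower. No gene of the endothelin list was called among 3 (median 0.66), and of 8 growth factor genes 1 was, HEY2, on 6 fragments in the knockout and 1 in the wild type (median 0.10). ARG1 and HEY2 passed the minimum through the knockout library alone, so nothing is read from the counts of higher genes in their lists. DARC-binding chemokines had 3 of 7 higher and 2 lower (median 0.09), with CCL14 at 1.59, CXCL2 at 1.39, CCL2 at -2.16 and AMCF-II at 0 fragments in the knockout and 16 in the wild type. Among tight junction genes CLDN12 was at -0.45, OCLN was at 1.45 and CLDN4 at 1.41, while CLDN3 had 0 fragments in the knockout and 5 in the wild type and CLDN1 had 0 and 4, knockout first.

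The fat-cell list had 5 of 6 measured genes higher in thymus, with sums of 1789 FPKM in the knockout and 485 FPKM in the wild type. Of these, PCK1 (98 fragments in the knockout, 1 in the wild type) passed the minimum through the knockout library alone. Red-cell genes were higher in 3 of 4, with sums of 4792 FPKM in the knockout and 915 FPKM in the wild type, nearly all HBB. KLF1 (7 fragments in the knockout, 0 in the wild type) and EPOR (10 and 2) passed the minimum through the knockout library alone, so nothing is read from that count. T-cell genes were lower in 4 of 6, B-cell genes in 2 of 4 and fibroblast genes in 1 of 4 with 1 higher. Macrophage genes were higher in 2 of 4 and lower in 1, smooth muscle genes were higher in 1 of 6, and none of 2 platelet or 2 epithelial genes was called. In the other organs 1 epithelial gene was measured, KRT8, and it was not called. The part of these shifts was not tested. CDH1, PPBP and CD163 were listed at 0 in all 6 libraries.

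Across organs, each of the 5 genes had a log2 ratio above 0 in all 3, as did 18.8% of 2671 genes measured in all 3; that of DARC in spleen turned below 0 when counts were scaled to the total. NOS3, EDN1 and PROX1 counted as measured in thymus through the knockout library alone, so nothing is read from this share. The fold in thymus had an interval above the one in spleen for CLDN5, NOS3 and DARC, and above the one in lymph node for NOS3 and DARC. The fold in lymph node had an interval above the one in spleen for CLDN5 and DARC. For EDN1 and PROX1 the intervals of the 3 organs overlapped. These intervals hold counting error only, and a difference between organs was not tested.

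Likeness of pattern was measured by Pearson's r of log2(FPKM + 1) over the 6 libraries, against 2803 other genes with at least 5 FPKM in some library. The 6 points are 3 organs in 2 genotypes, so organ differences shape every r. VWF was most like CLDN5 (r = 0.993), before CCBP2 (0.990) and EDNRB (0.989). PROX1 was most like KLF7 (0.991), EDNRB (0.991) and CLDN5 (0.989). NOS3 and DARC were each most like ABHD14A (0.990 for NOS3, 0.999 for DARC) and both had the other among their 3 nearest (0.988). MARCH3 (0.988) was the third for NOS3 and IL13RA1 (0.990) the second for DARC. EDN1 was most like RAMP2 (0.990), then THRA (0.973) and RHOJ (0.972), and no member of the 5 was among its nearest. These are the 3 nearest genes only and do not make separate groups. Between members r ran from 0.864 for EDN1 with PROX1 to 0.989 for CLDN5 with PROX1, and was 0.915 for EDN1 with DARC.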

How the data were processed

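Each organ has a table of FPKM and a table of estimated counts, both deposited by the authors with 1 column per library. Per the submitters' processing notes, FastQC 0.11.9, Trimmomatic 0.39, STAR 2.7.9a, Cufflinks 2.2.1 and Sscrofa11.1 were used; their roles and settings and the gene annotation stay unknown here. Per the labels' protocols, total RNA went into stranded TruSeq libraries. The authors' FPKM were taken as deposited. The deposited estimated counts were whole fragments times 1 factor per library (0.925 to 1.08): after division by it, 98.5 to 99.2% of values above 0 were whole within 0.02. The results were rounded. Since only some genes are listed, the totals are not library depths.

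Log2 ratios add 1 FPKM; genes with at least 1 FPKM in either library of a pair count as measured, and an absolute log2 ratio of at least 1 is a call. Folds are ratios of scaled counts with 95% Clopper-Pearson intervals (counting error only). No test or fit across organs was made, since organs are not replicates. The calculation was tested on simulated counts. The 5 genes, 8 related gene lists and 10 marker lists were chosen with earlier results of these data known. Named are the 5 genes, up to 4 called genes with the largest log2 ratio per list and organ, the general endothelial genes measured in all organs, and the 3 genes most like each member. Genes named outside this rule in an organ (EPCAM, EDN3, KRT8 and genes listed at 0) were chosen after their values were seen. Of 194 listed symbols 109 were in the tables, 3 of them under another name. The summary of the tight junction list in lymph node and thymus is not reported here. Coordinates and names come from RefSeq for Sscrofa11.1. Alternatives used edgeR 4.0.16 for TMM factors and DESeq2 1.42.0 for size factors, in R 4.3.3, and Python 3.11.15 with scipy 1.17.1, numpy 2.4.6, matplotlib 3.10.9 and pandas 2.3.3.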

Additional observations from a re-analysis of the deposited data

Results flagged for a closer look

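The following genes of the lists were called in opposite directions in different organs, each call with at least 10 fragments in one of its 2 libraries. Each value is a log2 ratio of knockout over wild type from 1 library per genotype, and the differences between organs were not tested. None of the 5 genes is among them. PROCR, the endothelial protein C receptor, was at 1.22 in thymus and -1.32 in lymph node. NOS2, the inducible nitric oxide synthase, was at 1.45 in lymph node and -1.06 in thymus. The smooth muscle gene CNN1 was at 1.18 in lymph node, -1.05 in spleen and 1.41 in thymus. The matrix gene DCN was at 2.72 in lymph node, -1.39 in spleen and 1.40 in thymus. The haemoglobin gene HBB was at 4.16 in lymph node, -1.13 in spleen and 2.39 in thymus. The macrophage scavenger receptor MARCO was at 1.11 in lymph node and -2.69 in thymus, and MSR1 at 1.59 in lymph node, -2.80 in spleen and 2.71 in thymus. With fewer fragments behind a call, CIDEC (5.53 in lymph node, -1.86 in spleen, 1.27 in thymus), CLDN1 (2.33 in lymph node, -1.20 in thymus), CLDN3 (1.33 in lymph node, -1.32 in spleen, -2.27 in thymus) and CCL21 (-1.40 in spleen, just past the size for a higher call in thymus) also did so.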

How the results depend on the processing

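Of 164 log2 ratios of the 5 genes under 11 alternatives, 151 kept their side of the size threshold and 13 fell short of a call. None that was called changed sign; DARC in spleen, not called, was at 0.03 as reported and -0.00146 with counts scaled to the total. With a size threshold of 2 the number of the 5 genes called higher was 0 in lymph node, 0 in spleen and 3 in thymus, and the general endothelial list had 0, 0 and 1 higher and 0 lower in each organ. With a pseudocount of 5 FPKM 0 of the 5 genes were called in spleen and 2 in thymus, and the general endothelial list had 0 higher in spleen. In lymph node that list had 2 higher with counts scaled to the total, with TMM factors or centred on the median, and 3 with DESeq2 size factors; in spleen it had 0 higher with counts scaled to the total. The cause was not tested. Set against the list's median in thymus, NOS3, EDN1 and PROX1 were at 0.81, 0.82 and 0.0499 as reported and turned to -0.17, -0.20 and -0.71 with a pseudocount of 5 FPKM; they were at 1.66, 1.79 and 1.60 with 0.1, and at 1.497, 1.23 and 0.70 with counts scaled to the total. Over all genes, a pseudocount of 5 left 166 higher and 160 lower in spleen (253 and 286 with 1) and 272 and 183 in thymus (441 and 317 with 1), and a threshold of 2 left 163 and 112 in lymph node (446 and 299 with 1), 79 and 76 in spleen and 110 and 105 in thymus. Scaling thymus counts to their total shifted the median of all genes to 0.116. PROX1 in thymus, on 11 fragments and 1 fragment, has no value with a minimum of 5 FPKM. No paired analysis was possible because each organ and genotype has 1 library and the labels carry no replicate number; no library could be left out for the same reason.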
